A study of Homo sapiens with 8 samples.

Results

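AU-rich element binding proteins are RNA-binding proteins that recognise AU-rich stretches in the 3′ UTRs of short-lived mRNAs. The 10 members described here were taken by gene symbol out of 61806 genes in the table: ZFP36, ZFP36L1, ZFP36L2, HNRNPD, KHSRP and ZC3H12A, which promote mRNA decay, ELAVL1, TIA1 and TIAL1, which stabilise mRNA or restrain its translation, and AUH, an RNA-binding enoyl-CoA hydratase of mitochondria. All 10 were expressed highly enough to be tested. mRNA was sequenced from N/TERT-1 cells, a TERT-immortalised human epidermal keratinocyte line for which no further engineered genotype is given (WT in the labels). Of the 8 libraries, 4 came from cells given ethanol, the vehicle, and 4 from cells given O/A, which is oligomycin, an inhibitor of the mitochondrial ATP synthase, with antimycin A, an inhibitor of respiratory complex III. The study plots this RNA-seq comparison at 4 hours, and its imaging experiments used 10 µM oligomycin with 4 µM antimycin A. The libraries came from independent experiments on 1 cell line.

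An AU-rich element is built from repeats of the pentamer ATTTA. ZFP36 (tristetraprolin, TTP) and its 2 paralogs bind the nonamer TTATTTATT through CCCH zinc fingers and recruit the CCR4-NOT deadenylase, while ELAVL1 (HuR) binds overlapping sites and protects the mRNA. In keratinocytes such mRNAs encode cytokines, growth factors and early transcription factors. Several of the binding proteins are encoded by mRNAs that carry AU-rich elements themselves.

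The nonamer was present once in the longest annotated 3′ UTR of 4 members and in none of the other 6. The 4 sites are shown because they are the sequence that the ZFP36 family recognises, here within the mRNAs of its own 3 genes and of ELAVL1. Each is given as DNA on the strand of the mRNA, 5′ to 3′, from GRCh38 with the nonamer in capitals.
ZFP36, chr19:39409196-39409224, plus strand: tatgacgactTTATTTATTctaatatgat
ZFP36L1, chr14:68788077-68788105, minus strand: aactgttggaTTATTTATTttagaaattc
ZFP36L2, chr2:43223448-43223476, minus strand: actatttaacTTATTTATTatcttgtgaa
ELAVL1, chr19:7961828-7961856, minus strand: atttatgtatTTATTTATTgaagtgtgaa
The site began at base 507 of a 3′ UTR of 713 bases in ZFP36, at base 1438 of 1871 in ZFP36L1, at base 853 of 1917 in ZFP36L2 and at base 1637 of 4910 in ELAVL1. Of 12242 tested genes with an annotated 3′ UTR, 1237 (10.1%) held the nonamer at least once. The pentamer, which lies inside the nonamer, was counted 13 times in ELAVL1 and in TIA1, 8 times in ZFP36L1, 7 times in TIAL1, 5 times in ZFP36 and in ZFP36L2, 3 times in AUH, 2 times in HNRNPD, 1 time in KHSRP and 0 times in ZC3H12A. Both motifs were searched on the mRNA strand only, and a match describes the sequence, not binding.

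Total counts per library lay between 17210404 and 20999927 in ethanol and between 17689760 and 19263046 in O/A. All 10 keratinocyte markers reached 1 FPKM, with a summed level of 7022.09 to 7431.44 FPKM in ethanol and 6450.28 to 6700.09 in O/A. The markers of fibroblasts summed to at most 2.94 FPKM in any library, with COL1A1 the only 1 of 5 above 1 FPKM and COL1A2 at 0. No marker of melanocytes, leukocytes or endothelium reached 1 FPKM, and MLANA, TYR and PTPRC were at 0. Lower expression per cell and a smaller share of expressing cells cannot be told apart in these bulk libraries.

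Of the 10 members, 2 were upregulated (ZFP36 and ZFP36L1) and 1 was downregulated (ZFP36L2) in O/A, where a call required an absolute log2 fold change [log2(FC)] above 0.25 with a Benjamini-Hochberg adjusted p no higher than 0.05 (edgeR quasi-likelihood). Over all 14893 genes tested, 34.7% were called, 15.8% upregulated and 18.9% downregulated, so the number of members called was near the background. The 3 called genes were the ZFP36 family. A further 4 members, HNRNPD, KHSRP, ZC3H12A and ELAVL1, passed the p-value threshold with a log2(FC) between -0.18 and -0.14, within the fold threshold. TIA1, TIAL1 and AUH passed neither. The median log2(FC) of the 10 members was -0.11, and that of all genes tested was -0.0004. In 7 members the scaled counts of the O/A libraries did not overlap those of the ethanol libraries, which held for 47.6% of all genes tested.

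**Figure D1:**
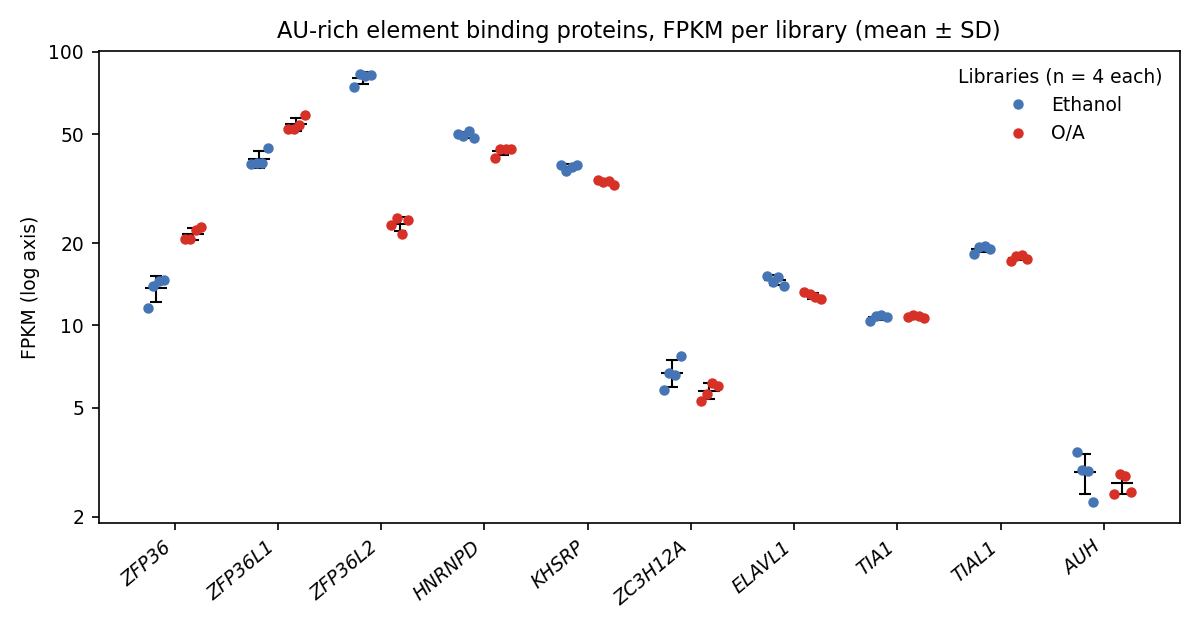
FPKM of each of the 10 members (log axis) in the 4 ethanol (blue) and 4 O/A (red) libraries, with points for single libraries and black bars for the mean ± SD. ZFP36 and ZFP36L1 lie higher in every O/A library, ZFP36L2 falls from 80.3 to 23.4 FPKM, and the points of ZC3H12A, TIA1 and AUH overlap between conditions.

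The levels that follow are FPKM, read counts divided by exonic gene size and library total, so a comparison between genes depends on that size. In ethanol the order of the means ran from ZFP36L2 (80.3 FPKM) through HNRNPD, ZFP36L1, KHSRP, TIAL1, ELAVL1, ZFP36, TIA1 and ZC3H12A to AUH (2.91 FPKM). The ranges of neighbours overlapped only for ELAVL1 and ZFP36. In O/A the order was ZFP36L1 (54.3 FPKM), HNRNPD, KHSRP, ZFP36L2, ZFP36, TIAL1, ELAVL1, TIA1, ZC3H12A and AUH (2.65 FPKM), and the ranges of ZFP36L2 and ZFP36 overlapped. By FPKM, ZFP36L2 was thus the most abundant member in ethanol, and ZFP36L1 in O/A. By read counts, HNRNPD lay above ZFP36L2 in every ethanol library (6035 to 7112 against 5060 to 6398 counts). It also lay above ZFP36L1 in every O/A library (5067 to 5916 against 4752 to 5390 counts). The exonic size used was 6981 bases for HNRNPD, 3693 for ZFP36L2 and 5160 for ZFP36L1.

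ZFP36L2, a CCCH protein of the ZFP36 family, lies on chromosome 2 from 43222402 to 43226606 on the minus strand. Its level was 74.55, 82.88, 81.28 and 82.50 FPKM in ethanol replicates 1 to 4, and 23.22, 24.65, 21.56 and 24.33 FPKM in O/A replicates 1 to 4. Every ethanol library lay far above every O/A library, and the spread within each condition was small beside that gap. Its log2(FC) was -1.73 (standard error, SE, 0.038, 95% interval -1.81 to -1.65, edgeR adjusted p = 3.5e-24). Of the 14893 genes tested, 56 had a lower log2(FC). A gene on the opposite strand, ENSG00000287387, overlaps its 3′ end and held 7 to 26 counts per library, against 1517 to 6398 for ZFP36L2.

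ZFP36 (TTP), on chromosome 19 from 39406847 to 39409412 on the plus strand, is the founding member of the family and is itself an early response gene. Its level was 11.54, 13.88, 14.58 and 14.60 FPKM with ethanol and 20.77, 20.66, 22.28 and 22.84 FPKM in O/A. Every O/A library lay above every ethanol library, and ethanol replicate 1 was the lowest of all. The log2(FC) was 0.71 (SE 0.058, 95% interval 0.59 to 0.83, edgeR adjusted p = 1.83e-13), which is 1.63-fold.

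ZFP36L1 lies on chromosome 14 from 68787660 to 68796253 on the minus strand and encodes another CCCH protein of the family. Its level was 38.92, 39.19, 39.16 and 44.64 FPKM with ethanol, against 52.06, 52.17, 54.23 and 58.73 FPKM in O/A. Ethanol replicate 4 stood above the other 3 ethanol libraries and still below all O/A libraries. The log2(FC) was 0.47 (SE 0.058, 95% interval 0.33 to 0.60, edgeR adjusted p = 0.00016). Without ethanol replicate 4 it was 0.53.

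**Figure D2:**
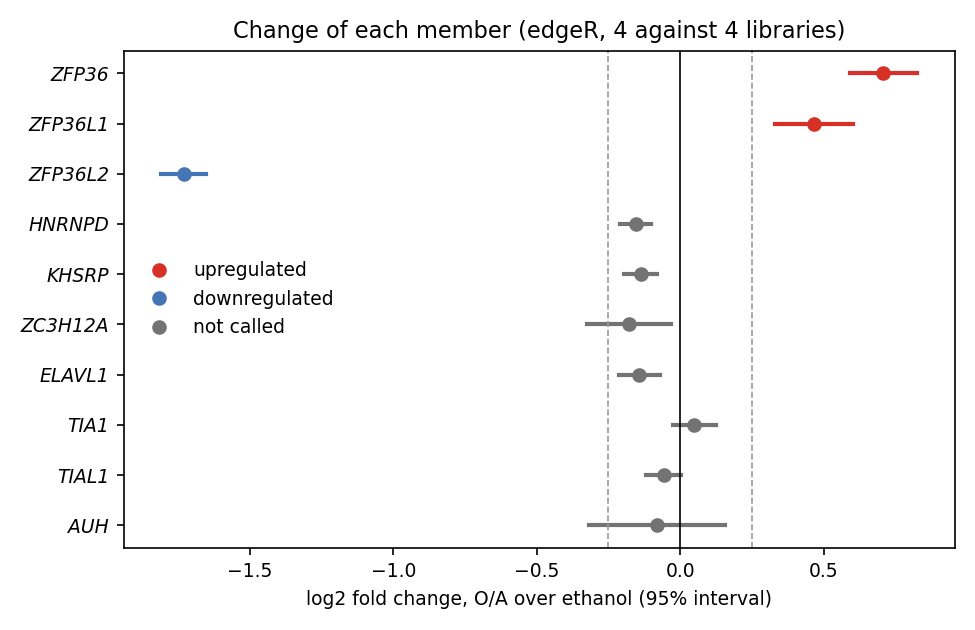
log2(FC) of O/A over ethanol for the 10 members (points) with 95% intervals (lines) from edgeR over 4 against 4 libraries, coloured by call, with dashed lines at the fold threshold of 0.25. ZFP36 (0.71) and ZFP36L1 (0.47) lie right of the threshold, ZFP36L2 (-1.73) lies far left, and the other 7 have estimates within it.

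The composition of the ZFP36 family differed between conditions. Summed over the 3 genes, the level was 134 ± 6.95 FPKM (SD, n = 4) with ethanol against 99.4 ± 4.43 FPKM with O/A, and the ranges of 125.01 to 141.74 and 96.05 to 105.90 FPKM did not overlap. ZFP36L2 made up 59.8% ± 1.16 of the sum in ethanol and 23.6% ± 1.44 in O/A. ZFP36L1 made up 30.1% ± 1.39 and 54.6% ± 0.923, and ZFP36 10.1% ± 0.657 and 21.8% ± 0.659, respectively. In every ethanol library ZFP36L2 was the most abundant of the 3, and in every O/A library ZFP36L1 was.

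**Figure D3:**
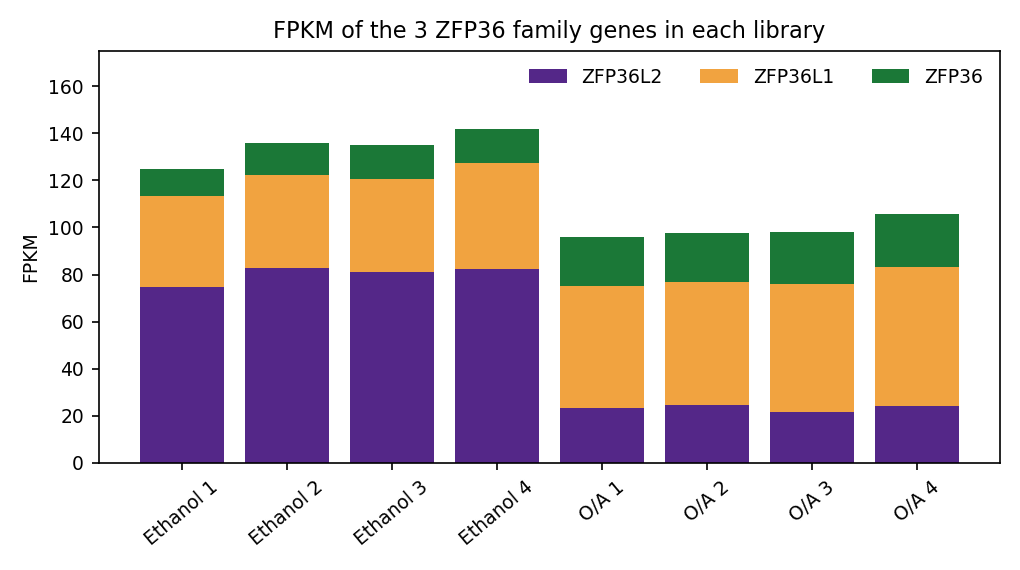
Stacked FPKM of ZFP36L2 (purple), ZFP36L1 (orange) and ZFP36 (green) in each of the 8 libraries, starting at 0. The ethanol bars reach 125.01 to 141.74 FPKM with ZFP36L2 as the largest part, and the O/A bars reach 96.05 to 105.90 FPKM with ZFP36L1 as the largest part.

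The ratio of 2 genes within a library does not depend on the scaling of that library. The geometric mean FPKM ratio of ZFP36 to ZFP36L2 was 0.170 in ethanol and 0.924 in O/A, with a log2 difference of 2.45 by read counts. That of ZFP36L1 to ZFP36L2 was 0.504 and 2.31, a log2 difference of 2.20. The 2 upregulated genes also differed from each other, since the ratio of ZFP36 to ZFP36L1 was 0.338 in ethanol and 0.400 in O/A, a log2 difference of 0.24. For each of these 3 ratios the libraries of the 2 conditions did not overlap (two-sided exact permutation test, p = 0.0286, the smallest that 4 against 4 allows, adjusted p = 0.0357 over 5 ratios). For the 2 ratios to ZFP36L2 this was fixed beforehand, because the members already lay apart in opposite directions. The test adds nothing for those 2 ratios, which also count among the 5 in each adjusted p of a ratio.

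The other decay-promoting members were lower in O/A by smaller amounts. HNRNPD (AUF1), a ribonucleoprotein on chromosome 4 from 82352498 to 82374503, had 49.94, 49.19, 51.41 and 48.51 FPKM with ethanol and 41.03, 44.17, 43.99 and 43.98 FPKM in O/A. The groups did not overlap, and O/A replicate 1 was the lowest library. Its log2(FC) was -0.15 (SE 0.027, edgeR adjusted p = 3.15e-06).

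KHSRP (KSRP), a KH-domain protein that recruits decay enzymes, lies on chromosome 19 from 6413102 to 6424811. It had 38.57, 36.58, 37.87 and 38.58 FPKM with ethanol, against 33.99, 33.38, 33.68 and 32.59 FPKM in O/A, again without overlap. The log2(FC) was -0.14 (edgeR adjusted p = 5.9e-05). ZC3H12A (regnase-1), an endoribonuclease on chromosome 1 from 37474580 to 37484377 that cuts stem-loops in cytokine mRNAs, had 5.83, 6.70, 6.60 and 7.73 FPKM with ethanol and 5.30, 5.61, 6.16 and 5.99 FPKM in O/A. Its groups overlapped, and ethanol replicate 4 was the highest. The log2(FC) was -0.18 (95% interval -0.32 to -0.03, edgeR adjusted p = 0.0345). In DESeq2 the adjusted p was 0.0953. Without ethanol replicate 4 the log2(FC) was -0.09 with an adjusted p of 0.315, and the adjusted p was also above 0.05 without ethanol replicate 2 (0.0646), O/A replicate 1 (0.137) or O/A replicate 2 (0.112).

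Among the proteins that stabilise mRNAs or hold back their translation, ELAVL1 on chromosome 19 from 7958573 to 8005659 had 15.14, 14.39, 15.09 and 13.93 FPKM with ethanol, against 13.25, 12.99, 12.65 and 12.49 FPKM in O/A. The groups did not overlap, with a log2(FC) of -0.14 (SE 0.035, edgeR adjusted p = 0.000506). The mean FPKM ratio of ELAVL1, a stabiliser, to HNRNPD, a destabiliser, was 0.296 in ethanol and 0.298 in O/A, and the libraries overlapped (log2 difference 0.01, two-sided exact permutation test, p = 0.83).

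TIA1 and TIAL1 (TIAR) are paralogs that silence translation and gather in stress granules. TIA1, on chromosome 2 from 70209444 to 70248660, had 10.41, 10.83, 10.95 and 10.70 FPKM with ethanol and 10.73, 10.88, 10.78 and 10.60 FPKM in O/A. Its FPKM values overlapped, whereas its TMM-scaled counts did not, and the log2(FC) was 0.05 (95% interval -0.02 to 0.12, edgeR adjusted p = 0.262). The gene C2orf42 overlaps it on the same strand with 217 to 282 counts per library. TIAL1, on chromosome 10 from 119571802 to 119597029, had 18.28, 19.29, 19.48 and 19.02 FPKM with ethanol and 17.18, 17.99, 18.08 and 17.53 FPKM in O/A, with a log2(FC) of -0.06 (95% interval -0.12 to 0.004, edgeR adjusted p = 0.109). Although neither gene was called, the ratio of TIA1 to TIAL1 was higher in each O/A library than in each ethanol library, at a mean of 0.610 against 0.566 on the FPKM scale (log2 difference 0.11, two-sided exact permutation test, p = 0.0286, adjusted p = 0.0357 over 5 ratios).

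AUH, on chromosome 9 from 91213815 to 91361918, was the least abundant member, with 3.46, 2.97, 2.93 and 2.27 FPKM with ethanol and 2.42, 2.87, 2.82 and 2.47 FPKM in O/A. The libraries overlapped fully on 97 to 144 counts, and the interval of the log2(FC), -0.32 to 0.16 around an estimate of -0.08, was the widest of the 10. A change of the size seen in ZFP36L1 lies outside that interval.

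The decay machinery that these proteins recruit did not move in one direction. Of 21 genes of deadenylation tested, 5 were upregulated and 1 downregulated (28.6% called, median log2(FC) 0.0008). The highest were BTG1, an antiproliferative adaptor of the deadenylase (0.99, from 18.9 ± 0.349 to 36.3 ± 1.56 FPKM, SD, n = 4), CNOT3 (0.42), a CCR4-NOT subunit, and BTG3 (0.34), and the downregulated gene was CNOT6L (-0.29, and -0.24 without ethanol replicate 4), a catalytic subunit. CNOT1, the scaffold that the ZFP36 proteins contact, had a log2(FC) of 0.30.

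Of 16 genes of decapping and 5′ decay, DCP1A (0.54) and XRN1 (0.26), the 5′ exonuclease, were upregulated and DCP1B (-0.26) was downregulated (18.8% called, median -0.0045). DCP1A and DCP1B encode alternative decapping cofactors, and DCP1B rested on 115 to 178 counts per library. The call of DCP1B was lost in DESeq2 (adjusted p = 0.0709) and in limma on log2(FPKM + 1) (log2(FC) -0.19). It was also lost without ethanol replicate 2 (-0.17) or O/A replicates 1, 3 or 4 (-0.25, -0.25 and -0.23). The call of XRN1 was lost in both limma fits (0.18 and 0.21) and under upper-quartile scaling (0.23). It was also lost without ethanol replicates 1 or 3 or O/A replicate 2 (each 0.24). Of 16 genes of the exosome, the 3′ exonuclease complex, and its SKI cofactor, 3 were upregulated and 4 downregulated (43.8% called, median -0.05). EXOSC6 (0.98), EXOSC8 (0.45) and EXOSC1 (0.30) were higher, and DIS3L (-0.52), EXOSC2 (-0.48) and EXOSC9 (-0.44) had the lowest log2(FC). EXOSC1 was below the fold threshold in both limma fits (0.220 and 0.248).

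Of 24 other AU-rich or related binding proteins tested out of 29, 2 were upregulated and 2 downregulated (16.7% called, median -0.05). RC3H2 (roquin-2, 0.40) and ZC3H12C (regnase-3, 0.28), both of which act on stem-loops, were called, and HNRNPDL (-0.29), a paralog of HNRNPD, and NCL (nucleolin, -0.27) fell. ZC3H12C was below the fold threshold without O/A replicate 4 (0.23), under upper-quartile scaling (0.249) and in both limma fits (0.20 and 0.24). ELAVL3, ELAVL4, ZC3H12B, ZC3H12D and IGF2BP1 had too few counts to be tested.

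The ZFP36 proteins are held inactive by phosphorylation through the p38-MK2 kinases and by 14-3-3 proteins, and are reactivated by the phosphatase PP2A. Of 16 such genes, DUSP1, a phosphatase that switches off p38, rose with a log2(FC) of 1.45 (6.71 ± 0.582 to 17.8 ± 1.67 FPKM, SD, n = 4), and PPP2CB, a PP2A catalytic subunit, had a log2(FC) of 0.28, which fell below the fold threshold under upper-quartile scaling (0.248) and in both limma fits (0.23). YWHAH, a 14-3-3 protein, had a log2(FC) of -0.58 and MAPK14, which encodes p38α, one of -0.32, and both were called (25.0% called, median -0.05). DUSP1 is also in the list of target mRNAs described below, so its call counts in both lists. These are mRNA levels, and phosphorylation was not measured. A list of 14 genes held 10 that encode stress granule proteins and 4 that encode eIF2α kinases, which act upstream of the granules, a split made after the data were seen. Of the 10 stress granule genes, ATXN2L (0.62) was upregulated, and UBAP2L (-0.52), CAPRIN1 (-0.44), USP10 (-0.36) and G3BP2 (-0.31) were downregulated (median -0.03). Of the 4 kinase genes, EIF2AK3 (1.09), which encodes PERK, was upregulated (42.9% of the 14 called, median 0.01).

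The listed target mRNAs were mostly higher in O/A. The list holds 47 mRNAs that are known to carry AU-rich elements and was drawn up with earlier results of these data known, so its count is not independent evidence. Of these, 42 were tested, of which 34 were upregulated and 4 downregulated (90.5% called, against 34.7% of all genes). The median log2(FC) of the 42 was 0.86, against -0.0004 over all genes tested. IL10, IL2, IL3, IFNG and CCL2 had too few counts. The list is rich in cytokines and early response genes, and mRNA levels do not separate synthesis from decay.

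VEGFA, an angiogenic growth factor, had the highest log2(FC) of the list at 2.74 (SE 0.03, edgeR adjusted p = 1.13e-51), from 6.17 ± 0.189 to 39.8 ± 1.21 FPKM (SD, n = 4). The chemokines CCL20 (2.61, from 0.388 to 2.33 FPKM, on 7 to 71 counts per library) and CXCL8 (2.44, from 6.37 to 33.4 FPKM) followed. The lowest were CCND1 (cyclin D1, -0.99, from 80.5 to 39.4 FPKM), SOX9 (-0.90, from 28.4 to 14.7 FPKM) and BCL2 (-0.78, on 18 to 52 counts per library, and -0.09 by limma on log2(FPKM + 1)), and MYC was also downregulated (-0.67). TNF, JUN, GADD45B and NOTCH1 were not called, with log2(FC) values of 0.10, 0.22, 0.24 and 0.18. IL1A and IL1B, named here after their values were seen because they were abundant, rose from 114 ± 4.77 to 442 ± 17 FPKM (log2(FC) 2.00) and from 69.2 ± 3.68 to 214 ± 6.51 FPKM (1.67).

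**Figure D4:**
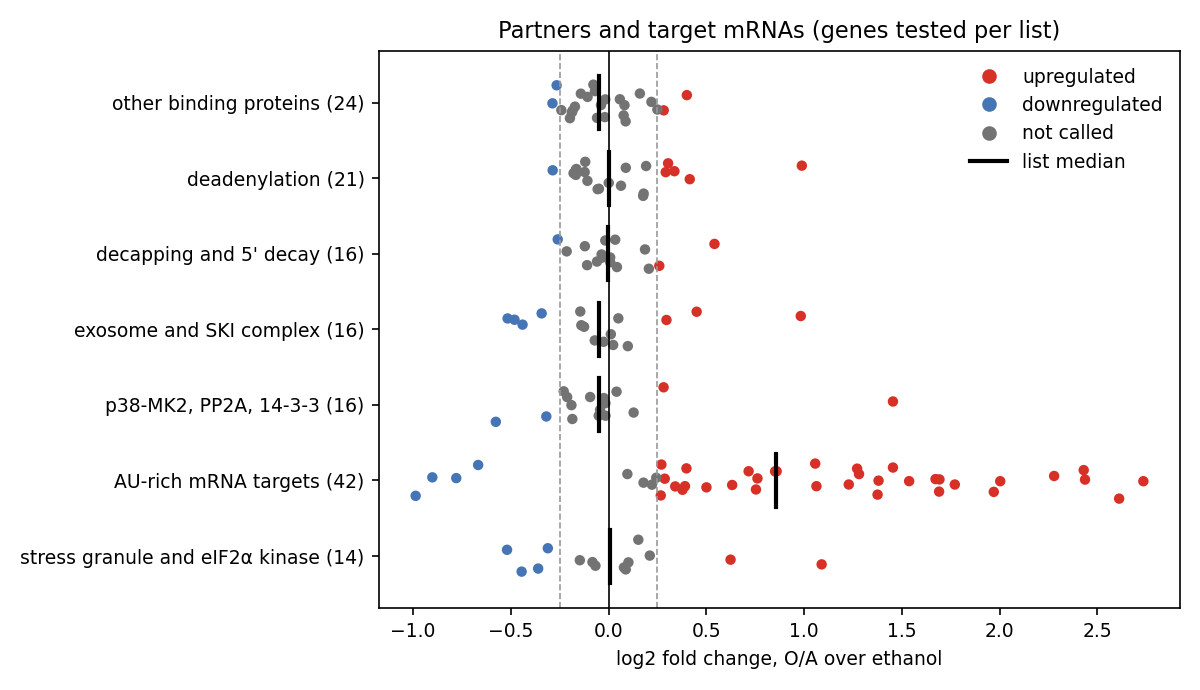
log2(FC) of O/A over ethanol for every tested gene of 7 lists, 1 point a gene coloured by call, with a black bar at the list median and dashed lines at the threshold of 0.25. The vertical scatter within a list has no meaning. The 42 target mRNAs are spread to the right with a median of 0.86, whereas the medians of the other 6 lists lie between -0.05 and 0.01.

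Among the 42 tested targets, 22 held the nonamer in the 3′ UTR, of which 18 were upregulated and 2 downregulated, with a median log2(FC) of 1.30. The other 20 did not hold it, of which 16 were upregulated and 2 downregulated, with a median of 0.73. Stretches of 5 targets are shown, of which CXCL2, VEGFA and CXCL8 were upregulated, SOX9 was downregulated and TNF was not called. TNF and CXCL2, chosen after their values were seen, each held 5 nonamers in the whole 3′ UTR, the capitals mark overlapping nonamers, and the stretch with the most is printed.
CXCL2, chr4:74097584-74097612, minus strand: ctatTTATTTATTTATTTATTTATTtgtt
TNF, chr6:31577999-31578027, plus strand: aTTATTTATTATTTATTTATTATTTATTt
VEGFA, chr6:43786286-43786314, plus strand: ttgttatcatTTATTTATTggtgctactg
CXCL8, chr4:73742664-73742692, plus strand: atgtaaagtaTTATTTATTtgaatctaca
SOX9, chr17:72125498-72125526, plus strand: cttgctaaaaTTATTTATTttgtaaggag
CXCL2, with 4 nonamers in this stretch, was upregulated (log2(FC) 1.97, from 2.44 ± 0.543 to 9.38 ± 2.34 FPKM, SD, n = 4). TNF, with 4 nonamers in its stretch, had 2.86 ± 0.302 FPKM with ethanol, against 2.98 ± 0.359 FPKM with O/A (log2(FC) 0.10, edgeR adjusted p = 0.548). VEGFA, CXCL8 and SOX9 held 1 nonamer each. Reads of CXCL2 may be shared with its close paralogs CXCL1 and CXCL3, so its value is uncertain.

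Over all tested genes with an annotated 3′ UTR, the share upregulated was higher where the nonamer was present. Of 11005 genes without it, 14.7% were upregulated and 20.8% downregulated. Of 926 genes with 1 copy, 24.5% were upregulated and 16.8% downregulated, and of 311 genes with 2 or more copies, 29.6% and 16.4%. The median log2(FC) was -0.02, 0.06 and 0.08, so the typical difference was small beside that of the listed targets. The median 3′ UTR length also rose, from 1397 to 3089 and 3842 bases. Among genes with a 3′ UTR of 1000 to 3000 bases, a range added after the data were seen, the 3 classes held 4368, 341 and 91 genes. Of these, 15.4%, 26.1% and 37.4% were upregulated, and 22.7%, 19.6% and 19.8% downregulated. Their median log2(FC) was -0.03, 0.04 and 0.06, with median lengths of 1759, 2034 and 1912 bases. These shares are a description, since genes are not replicates, and other properties of these genes were not compared.

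Genes with the profile most like that of each called member were found by Pearson's r of log2 scaled counts over the 8 libraries, which mostly reflects the difference between the 2 conditions. For ZFP36L2 they were BCOR (r = 0.999, log2(FC) -1.57), MIR210HG (0.999, -2.04) and ZNF544 (0.998, -0.70). For ZFP36L1 they were SLC6A6 (0.996, 0.42), FADS3 (0.993, 0.37) and ITGB4 (0.992, 0.15), and for ZFP36 they were PCNX4 (0.992, 0.21), RNF149 (0.992, 0.24) and ENSG00000230074 (0.992, 1.42).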

How the data were processed

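Total RNA of N/TERT-1 cells was converted to poly(A) mRNA libraries, 4 per condition, from independent experiments. The deposited counts were made by the authors, who aligned reads to GRCh38.p13 with HISAT2 2.0.1 and assigned them to genes with HTSeq 0.6.1, per the labels. The strand setting is not given in the sources used here, so overlapping genes are uncertain. The FPKM values were deposited by the authors and match count, gene size and library total within 0.005. The authors' DESeq2 comparison (fold changes, p-values) was also deposited and was not used.

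The counts were fitted over the whole table in edgeR 4.0.16 (R 4.3.3, TMM scaling, robust quasi-likelihood test, Benjamini-Hochberg adjustment), for the 14893 genes that reached 10 counts in 4 or more libraries. The log2 differences of ratios and their tests used log2(count + 0.5). The mean FPKM ratios are geometric means over libraries of ratios of FPKM + 0.1. Missing symbols (20380 of 20417) and 3′ UTRs came from a GENCODE annotation of GRCh38, and coordinates of genes from the deposited table. The members and lists were chosen with earlier results of these data known. All members were named, and of each list the 3 highest and 3 lowest called genes. Genes named outside this rule were chosen after their values were seen. They were CNOT1, G3BP2, MYC, IL1A, IL1B, IL6, IL23A, CXCL1, CXCL2, CXCL3, CSF2, EGR1 and the uncalled or untested genes. For each called member the 3 genes with the highest r were also named.

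Alternatives were DESeq2 1.42.0, limma 3.58.1 on log2(FPKM + 1) and log2(FPKM + 0.1), other scalings, filters and fold thresholds, a replicate block and each library left out. In simulated data of 14893 genes edgeR recovered 76 of 100 genes changed by 0.5 (log2) and 93 of 100 changed by 1, with 7 false calls. Far fewer genes changed there than the 34.7% called in the real data. These numbers are therefore not error rates of the calls reported here. No pair of libraries was alike within sampling noise (chi-square per degree of freedom at least 1.78). The total counts of 17210404 to 20999927 per library leave members with few reads, such as AUH, imprecise.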

Additional observations from a re-analysis of the deposited data

Results flagged for a closer look

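In 2 of the 20 groups of 4 libraries tested, 1 library stood apart from the other 3 by Dixon's criterion, where chance gives about 1. ZFP36L1 had 227.4 TMM-scaled CPM in ethanol replicate 4. Its remaining ethanol libraries held 198.1 to 199.3 CPM, and replicate 4 still lay below every O/A library (272.9 to 308.7 CPM). HNRNPD had 291.4 CPM in O/A replicate 1. Its remaining O/A libraries held 312.6 to 313.2 CPM, and all 4 lay below every ethanol library (334.3 to 351.8 CPM).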

How the results depend on the processing

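The calls of ZFP36, ZFP36L1 and ZFP36L2 were kept in all 16 alternative fits each, with log2(FC) from 0.63 to 0.75, from 0.42 to 0.53 and from -1.77 to -1.69. With no fold threshold, 7 members were called in place of 3, and with an absolute log2(FC) above 1, 1 was called. The same 2 settings gave 18 and 0 calls for the other binding proteins, 16 and 0 for deadenylation, 7 and 0 for decapping, 11 and 0 for the exosome, 9 and 1 for the kinase list and 12 and 1 for the stress granule and eIF2α kinase list, and the second gave 20 for the targets. With a mean FPKM of at least 5, decapping had 1 call and the exosome 4, since fewer genes were tested, and limma on log2(FPKM + 1) gave 1 for decapping (the cause was not tested). AUH turned from -0.08 to 0.0242 without ethanol replicate 1 (leave-one-out range -0.185 to 0.0242), and ELAVL1 over HNRNPD turned to -0.03 without O/A replicate 1 (range -0.0271 to 0.0348). The difference in median log2(FC) between genes with 2 or more nonamers and none was 0.0997, and became 0.0522 with pentamers, 0.112 with canonical transcripts, 0.0828 with 3′ UTRs of 1000 to 3000 bases (chosen after seeing the data), and 0.0832 to 0.111 with libraries left out. The causes were not tested. At the same fold threshold, 4 of the 38 target calls, 2 of 3 in decapping, 2 of 6 in deadenylation, and 1 each in the exosome, kinase and other binding protein lists were lost in at least 1 fit. Upper-quartile scaling moved the kinase list from 2 up and 2 down to 1 up and 3 down, and both limma fits gave 1 up and 4 down.

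Same-numbered libraries of the 2 conditions did not deviate together (correlations -0.02 to 0.06). No pairing was seen, but with 4 libraries per condition this check cannot exclude one. With the replicate block, 3 members were called, and over all genes 2354 rose and 2806 fell. For the ratios, sign flips over 4 pairs cannot reach 0.05, and the differences of 0.2446, 2.4456, 2.201 and 0.1077 had an adjusted p of 0.156 under this block (exact sign-flip permutation test). Of the members, AUH had the fewest counts, and among listed genes CCL20 (7 to 71 counts), IL23A (8 to 88), MAP2K6 (17 to 40) and BCL2 (18 to 52) were less precise than AUH. The SE was also larger than that of AUH (0.118) for CXCL2 (0.237), CXCL1 (0.161), CSF2 (0.143), CXCL3 (0.133), IL6 (0.126), TNF (0.126) and EGR1 (0.122).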
